A study of Danio rerio with 6 samples.

Results

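The genes described here are 10 genes that mark microglia and macrophages in zebrafish: spi1b, irf8, csf1ra, havcr1, mpeg1.1, coro1a, lcp1, c1qa, c1qb and c1qc. They were found on the array by gene symbol, and the array's symbol field gave 8 target sequences for 7 of them. RefSeq identifiers added 3 targets, for csf1ra, havcr1 and spi1b, and a map marker with a homologue name added 1 target for lcp1. A further 4 targets were added, so that 16 targets of 38489 were followed on all 6 arrays. Among the 4, a csf1ra target shared the position of its RefSeq target, and a c1qc target shared a transcript cluster with another c1qc target. The remaining ones, of spi1b, shared a cluster with each other, while no cluster is given for the other spi1b targets. They were assigned by that cluster and a homologue name. The choice of the targets outside the symbol field was made after the array files had been opened.

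Each array held the RNA of 1 whole brain, taken from a male fish of the AB strain aged 12 months. In the control group, 3 fish had grown from embryos kept at 0 ppb lead, and in the lead-exposed group, 3 fish had grown from embryos kept in 100 ppb lead as lead acetate. Exposure began before 2 hours and ended at 72 hours after fertilization, and both groups were then raised at 28 °C in water without added lead. The comparison asks whether the brain of an old fish still differs after an exposure limited to the embryo. Tanks are not named in the labels, and p-values therefore cover only the spread between the fish at hand.

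Microglia are the macrophages that live in the brain, where they take up dying cells and debris and prune synapses. In zebrafish they descend from myeloid progenitors whose identity is set by the transcription factors Pu.1, encoded by spi1b, and Irf8, and they need signalling through the Csf1 receptor to colonise the brain. Their transcripts are a small share of the RNA of a whole brain, in which fewer cells of this type and less RNA per cell cannot be told apart. All 10 genes are also used by macrophages outside the brain, and some of them, such as coro1a and lcp1, by other white blood cells.

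Values are log2 of the deposited RMA intensity. Probes of random sequence, which match no gene, gave the background, and their 95th percentile lay between 10.41 and 10.91 on the 6 arrays. A target is called above background on an array where it exceeded that limit. The limit comes from single random probes, whereas a target value summarises several probes, so the percentile does not carry over to targets as a rate. Of the 16 targets, 2 were above it on every array, those of coro1a and lcp1, and 7 were above it on none. Differences of targets under the limit are differences of dim signals and give no fold between groups. Neuronal and glial genes marked the tissue as brain, with 15 of 16 above the limit on every array, among them snap25a, of the synaptic release machinery, between 15.16 and 15.27.

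The microglia and macrophage genes varied widely from fish to fish and did not separate the exposed from the control fish. Taking the brightest target of each gene, all 10 were lowest in the same animal, lead-exposed fish 3, and 6 were highest in another animal of the same group, lead-exposed fish 2. On average over the 10 genes, lead-exposed fish 3 stood at −1.31 log2 units from the mean of all arrays and lead-exposed fish 2 at 0.76. Control fish 2 stood at 0.47, control fish 3 at 0.12, lead-exposed fish 1 at 0.04 and control fish 1 at −0.08. These averages take in values under the random-sequence limit, and in lead-exposed fish 3 only coro1a and lcp1 were above it. No target passed the adjusted threshold for exposure.

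**Figure D1:**
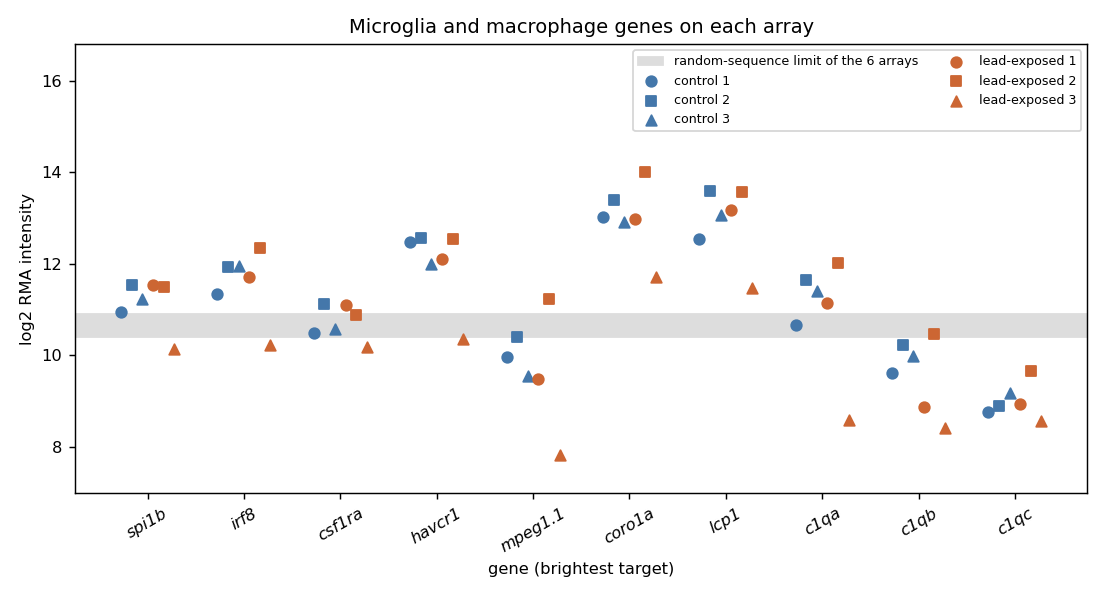
Log2 RMA intensity of the brightest target of each of the 10 genes (horizontal axis) on each array. Circles, squares and triangles are fish 1, 2 and 3 of the control group (blue) and the lead-exposed group (orange), and the grey band spans the random-sequence limits of the 6 arrays, 10.41 to 10.91. The triangle of lead-exposed fish 3 is the lowest point of every gene.

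The transcription factor spi1b, an ETS factor that drives myeloid fate, had 5 targets. The RefSeq target, the brightest, maps to chromosome 7, positions 30886330 to 30898404 of Zv7, and covers the annotated gene. It read 10.95, 11.54 and 11.23 in control fish 1, 2 and 3 and 11.55, 11.49 and 10.15 in lead-exposed fish 1, 2 and 3. The exposed values thus spanned those of the controls, with fish 3 alone below them. A Vega transcript target of the same gene read 10.20, 11.21 and 10.58 in the controls and 11.28, 11.06 and 10.01 in the exposed fish. Across the arrays it ranked the fish in the same order as the RefSeq target (Spearman rho = 1, Pearson r = 0.91, exact permutation p = 0.0028 and 0.0014 over 6 arrays). The second Vega target stayed between 9.80 and 10.38 and the mRNA target between 6.59 and 7.22, both under the limit on every array.

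The last spi1b target, named after the Zv7 assembly, lies just beyond the end of the annotated gene, at positions 30898982 to 30899404 of chromosome 7. Its assignment to spi1b is weaker, as it shared a transcript cluster only with the mRNA target, and no cluster is given for the RefSeq target. This Zv7 target ordered the fish differently. It read 8.39, 8.68 and 8.73 in the controls and 8.98, 9.29 and 9.28 in the exposed fish, so that the groups did not overlap. All 6 values were under the random-sequence limit. The exposed mean was 0.58 higher (SE 0.16, limma unadjusted p = 0.0078, adjusted p = 0.592). Its correlation with the RefSeq target was −0.22 (Spearman rho 0.03, exact permutation p = 0.701 and 1, n = 6 arrays). Of its 3 probes, the brightest read between 10.35 and 11.05 and overlapped between the groups, and the dimmer ones read between 7.47 and 9.36.

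For irf8, without whose product zebrafish embryos form no microglia, the target is on chromosome 18. It read 11.34, 11.94 and 11.95 in control fish 1, 2 and 3 and 11.71, 12.35 and 10.22 in lead-exposed fish 1, 2 and 3. The exposed group held both the highest and the lowest fish, and only the lowest was under the limit of its array.

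The receptor gene csf1ra encodes the kinase that binds Csf1 and Il34, and in zebrafish it also serves yellow pigment cells. Both of its targets lie on an unplaced scaffold of Zv7, Zv7_NA3207, positions 39615 to 66940. The brighter one read 10.49, 11.12 and 10.57 in the controls and 11.11, 10.89 and 10.18 in the exposed fish. Control fish 1 and lead-exposed fish 3 were under the limit of their arrays and the other 4 above it. The RefSeq target read between 7.33 and 8.09, under the limit on every array.

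The gene havcr1 belongs to the T-cell immunoglobulin and mucin family, whose mammalian members bind phosphatidylserine on dying cells. Its target covers positions 33218722 to 33223476 of chromosome 21 in Zv7. It read 12.47, 12.57 and 12.00 in the controls and 12.11, 12.53 and 10.37 in the exposed fish. Here 5 fish lay between 12.00 and 12.57 and lead-exposed fish 3 stood apart, with a difference of −1.63 to the lowest of them and a value under the limit of its array.

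The gene mpeg1.1 encodes a perforin-like protein of macrophages, and its promoter drives the usual macrophage reporter lines of zebrafish. Its target, on chromosome 8, read 9.98, 10.40 and 9.56 in control fish 1, 2 and 3. The exposed fish read 9.49, 11.23 and 7.84. It was above background in lead-exposed fish 2 only, so the order of the other fish is an order of dim signals.

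Both actin-binding proteins of white blood cells were bright in every fish, so their differences are measured on both sides. The gene coro1a encodes coronin 1A, and its target on chromosome 3 read 13.02, 13.40 and 12.92 in the controls and 12.99, 14.00 and 11.71 in the exposed fish. The intensity in lead-exposed fish 2 was 4.88 times that in lead-exposed fish 3. The gene lcp1 encodes L-plastin, which bundles actin filaments, and its target covers positions 51067463 to 51072384 of chromosome 9 in Zv7. It read 12.55, 13.58 and 13.08 in the controls and 13.18, 13.57 and 11.47 in the exposed fish. The ratio of lead-exposed fish 2 to lead-exposed fish 3 was 4.28 for lcp1. For genes whose value in lead-exposed fish 3 was under the limit, only a lower bound can be given, taken against the limit of that array. The intensity in lead-exposed fish 2 was at least 4.16-fold higher for havcr1, at least 3.67-fold for irf8, at least 2.91-fold for c1qa, at least 2.02-fold for spi1b, at least 1.69-fold for mpeg1.1 and at least 1.33-fold for csf1ra.

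C1q, the recognition protein of the classical complement pathway, is built from the products of c1qa, c1qb and c1qc, and in the mammalian brain microglia are its main source. All 3 genes have Vega targets on chromosome 21. The c1qa target read 10.66, 11.65 and 11.42 in the controls and 11.15, 12.01 and 8.60 in the exposed fish. The values of control fish 1 and lead-exposed fish 3 were under the limits of their arrays. The c1qb target read 9.61, 10.23 and 9.98 in the controls and 8.87, 10.47 and 8.41 in the exposed fish, under the limit on every array. The Vega target of c1qc read between 8.56 and 9.66. Its mRNA target, at positions 9468028 to 9470562 of chromosome 21 in Zv7, read between 7.55 and 9.20. Neither c1qc target was above background on any array, although their values were correlated (Pearson r = 0.83, Spearman rho = 0.77, exact permutation p = 0.0458 and 0.103, n = 6 arrays).

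Exposed and control fish were compared for every target with limma over all 38489 transcripts. None of the 16 targets passed an adjusted p of 0.05, and neither did any other transcript (0%). At an unadjusted p under 0.05, 1 of the 16 targets was called, the spi1b target beyond the end of the gene, against 7.19% of all transcripts. That target was also the 1 of 16 whose groups did not overlap, against 13.1% of all transcripts. Neither share of the members was above the background. The mean was lower in the exposed fish for 11 of 16 targets, against 50.8% of all transcripts, and for 9 of the 10 brightest targets. The median difference was −0.25 over the 16 targets and −0.32 over the 10 genes, beside −0.004 over all transcripts. The authors' deposited table of altered probes listed 180 of the 38489 targets and held 0 of the 16. With so few listed of all targets, a count of 0 says little about the members.

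The intervals were wide, and the SD within the exposed group was larger than that within the controls for 15 of the 16 targets. For mpeg1.1 the difference was −0.46 (SE 0.78, adjusted p = 0.92), with a 95% confidence interval from −2.31 to 1.39. For c1qa it was −0.65 (SE 0.82, adjusted p = 0.883), with an interval from −2.60 to 1.297. The c1qb difference of −0.69 (SE 0.51, adjusted p = 0.812) and the havcr1 difference of −0.68 (SE 0.53, adjusted p = 0.821) were the lowest of the 16. For the bright genes the intervals were also wide. For coro1a the difference was −0.21 with an interval from −1.47 to 1.04, and for lcp1 −0.33 with an interval from −1.64 to 0.98 (adjusted p = 0.947 and 0.919). For csf1ra the interval of the brighter target ran from −0.67 to 0.67.

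The sign of the difference rested on a single animal. Without lead-exposed fish 3 the median over the 10 genes was 0.30 and 2 of the 10, c1qb and havcr1, were lower in the exposed fish. Without lead-exposed fish 2 the median was −0.77. In that setting 3 of the 16 targets reached an unadjusted p under 0.05, against 5045 of all 38489 transcripts. The 3 were the spi1b target beyond the gene, higher, and mpeg1.1 and c1qb, lower. None of the 3 was above the random-sequence limit on any array left in. Without control fish 2 the median was −0.15. The image names of fish 1 of each group lack a prefix that the other names carry, and this was taken as a possible batch. Within the 4 arrays with the prefix the median difference was −0.61, with 9 of 10 genes lower. Between the 2 arrays without it the median was 0.27, with 4 of 10 lower. The array names also number the 3 control arrays 1 to 3 and the 3 exposed arrays 4 to 6. What this number stands for is not stated, and number and exposure cannot be told apart.

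**Figure D2:**
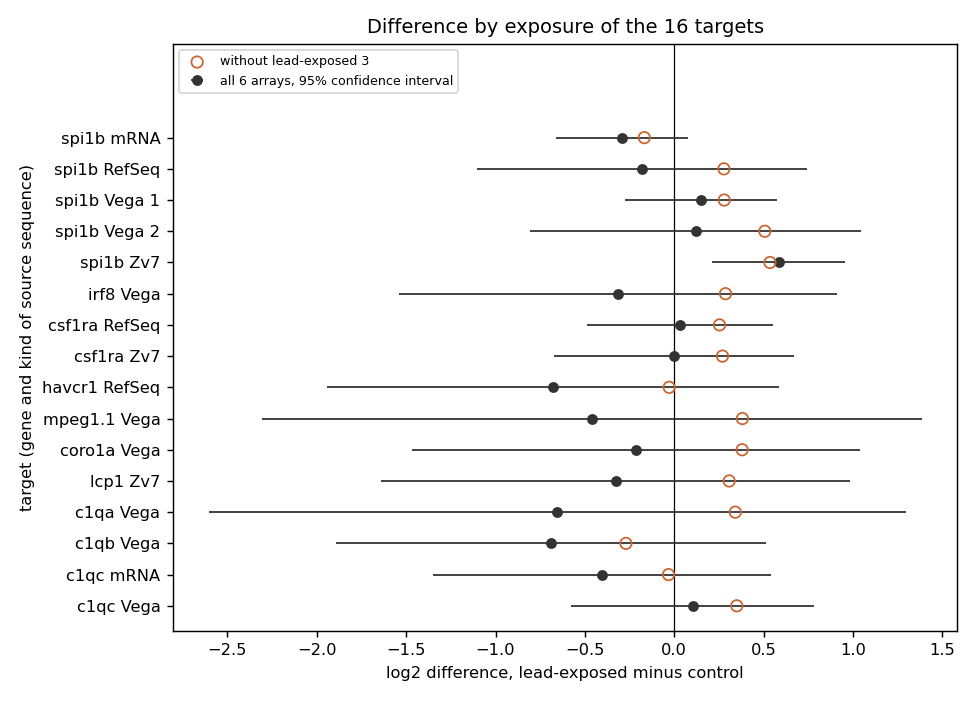
Log2 difference between exposed and control means (horizontal axis) of each of the 16 targets (vertical axis, with the kind of sequence the target was built from). Filled points with lines are the values from all 6 arrays with 95% confidence intervals, and open orange circles are the values without lead-exposed fish 3. Only the interval of the spi1b Zv7 target leaves out 0, and without that fish 12 of the 16 circles lie above 0.

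The spread between exposed fish stood out against the array as a whole. The counts that follow were chosen after the values had been seen, take in values under the random-sequence limit and describe these 6 fish. The median range over the 6 arrays was 1.52 log2 units for the 16 targets and 0.63 for all transcripts. Within the controls the medians were 0.60 and 0.36, and within the exposed fish 1.46 and 0.40. Lead-exposed fish 3 was lowest in 14 of the 16 targets, against 20.1% of all transcripts, and lead-exposed fish 2 was highest in 8 of the 16, against 18.2%. Both held for 7 of the 16, against 5.54%. Lead-exposed fish 3 fell under lead-exposed fish 2 by at least 1 log2 unit in 11 of the 16 targets, against 2.85%. In 6 of the 16 it stood at least 1 log2 unit under the next lowest fish, against 0.195% of all transcripts. These were irf8, havcr1, mpeg1.1, coro1a, lcp1 and c1qa. Between whole arrays, correlations across transcripts lay between 0.969 and 0.987, and lead-exposed fish 3 averaged 0.973 with the others. The lowest pair was lead-exposed fish 2 with lead-exposed fish 3, and the highest was control fish 1 with lead-exposed fish 2. Control fish 1, control fish 2 and lead-exposed fish 2 correlated with each other at 0.982 to 0.987. Control fish 3, lead-exposed fish 1 and lead-exposed fish 3 did so at 0.977 to 0.982. Pairs across these sets stood at 0.969 to 0.976. The split crosses both exposure and the image name prefix, and its part in the gap between lead-exposed fish 2 and 3 was not tested.

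Where single probes were bright, most were lowest in the same fish, while the fish in which they were highest varied. The 16 targets have 48 probes, 3 each. Of the 21 that exceeded the limit on at least 4 arrays, 20 were lowest in lead-exposed fish 3 and 18 were at least 1 log2 unit lower there than in lead-exposed fish 2. Of the 23 that exceeded it on no array, 11 were lowest in lead-exposed fish 3 and 7 showed that gap. Over all 113549 target probes, 20.1% were lowest in that fish and 4.14% showed the gap. The coro1a probes read 11.77, 11.71 and 12.12 in lead-exposed fish 3 and 13.19, 14.00 and 14.53 in lead-exposed fish 2. Their differences between exposed and control means did not share a sign, at 0.39, −0.21 and −0.69. The dim first probes of c1qa, irf8 and mpeg1.1 were not lowest in lead-exposed fish 3, and each was under the limit on every array. The first c1qb probe, also under the limit on every array, was on average the brightest of its target and ran the other way. It read 10.39 in lead-exposed fish 3 and 9.75, its lowest value, in lead-exposed fish 2.

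**Figure D3:**
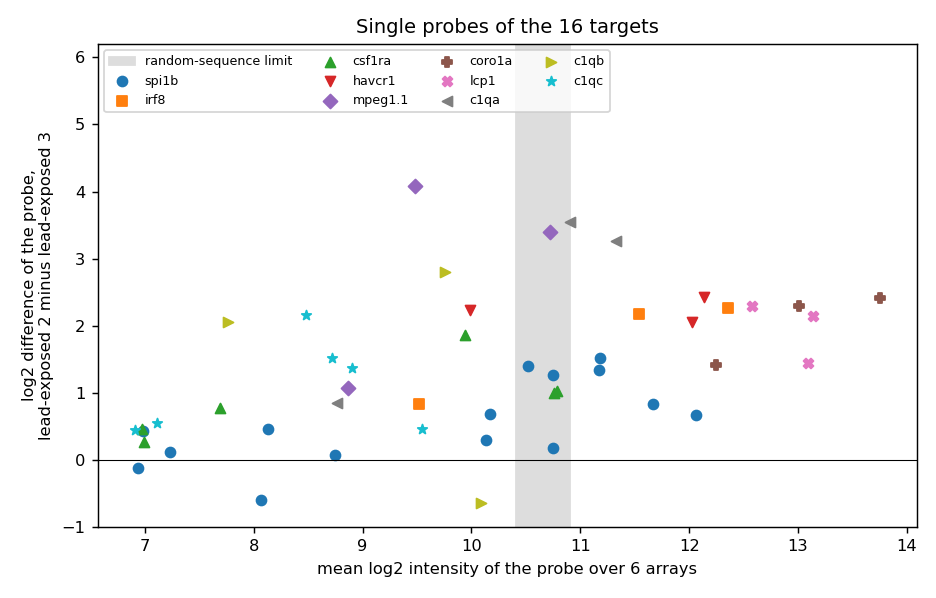
Each point is 1 of the 48 probes of the 16 targets, with its mean log2 intensity over 6 arrays (horizontal axis) and its log2 difference, lead-exposed fish 2 minus lead-exposed fish 3 (vertical axis). Marks and colours give the gene, and the grey band spans the random-sequence limits of the arrays. To the right of the band every probe lies above 0, and near 7 on the horizontal axis the points lie close to 0.

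The 10 genes were correlated across the fish. Between the brightest targets, all 45 pairs had a Pearson r above 0 over the 6 arrays, from 0.44 to 0.99, with a median of 0.87 and a median Spearman rho of 0.71. The median over all pairs of transcripts on the array was 0.001. An r of at least 0.9 was reached by 35.6% of the member pairs and by 1.22% of all pairs. The pairs share the same 6 arrays, and the genes were chosen as marks of one cell lineage, so the values describe these fish. With group means removed the median r was 0.89. Exact permutation tests over the 720 orders of the arrays gave an unadjusted p under 0.05 for 25 of 45 pairs by Pearson r and 11 by Spearman rho. After Benjamini-Hochberg adjustment over the 45 pairs, 19 passed by Pearson r, with a smallest value of 0.0398, and 0 by Spearman rho, with a smallest value of 0.0938.

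Much of this rested on lead-exposed fish 3. Without it the median r of the 45 pairs was 0.65, with 44 pairs above 0, and 8.89% of them reached 0.9, against 2.47% of all pairs. Without lead-exposed fish 2 as well, over 4 fish, the median was 0.45, with 36 pairs above 0. When the 2 arrays farthest from the median of each pair's first gene were left out, the median was 0.52. The tightest pair was irf8 with c1qa, at r = 0.994 and rho = 0.943 (exact permutation p = 0.0028 and 0.0167, adjusted 0.0398 and 0.0938, n = 6), and it held at 0.969 without the 2 farthest fish. The pair of mpeg1.1 and coro1a followed, at r = 0.992 and rho = 0.943, with 0.912 without those fish. The c1qa and lcp1 pair stood at r = 0.981 and rho = 0.886, with 0.931 without those fish.

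Not every gene followed the same order once the lowest fish was set aside. The transcription factor and receptor genes spi1b and csf1ra kept to each other, at r = 0.923 with all 6 fish and 0.934 without lead-exposed fish 3. The gene havcr1 kept to mpeg1.1 at 0.79 without that fish but had a median r of 0.24 to the 9 other genes. The medians of csf1ra and spi1b were 0.33 and 0.45, and those of coro1a and c1qa were 0.70 and 0.71. For mpeg1.1 and irf8, r went from 0.903 to 0.024 when the 2 farthest fish were left out. The lowest pair of all 45 was csf1ra with c1qc, at 0.437, where c1qc was never above background.

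**Figure D4:**
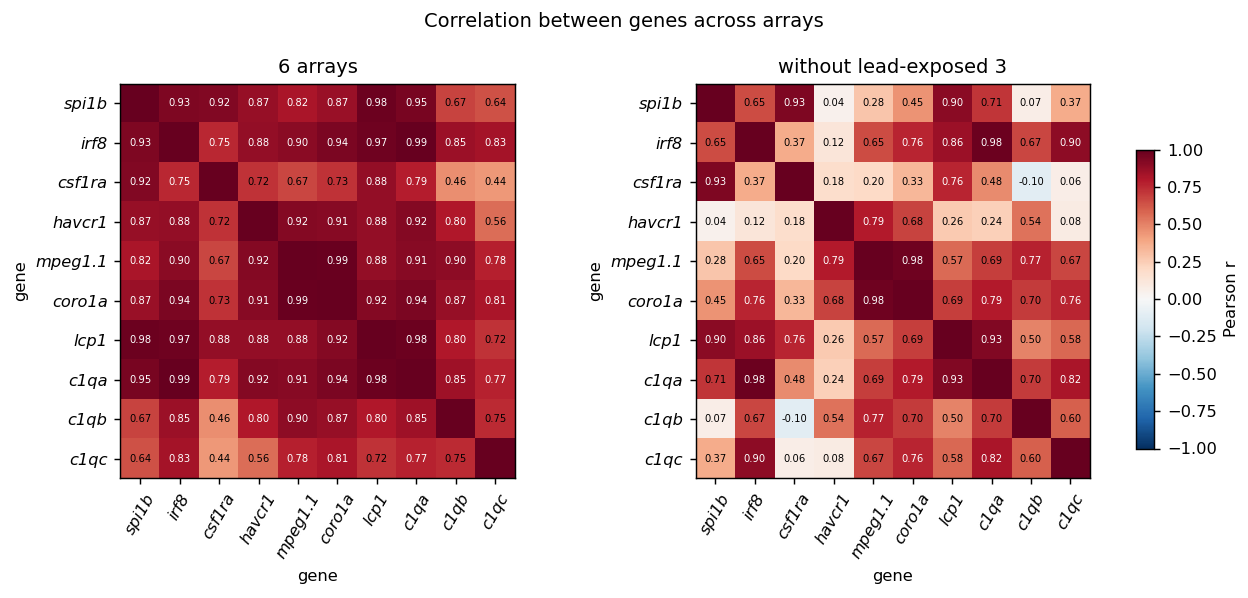
Pearson correlation between the brightest targets of the 10 genes over 6 arrays (left) and over the 5 arrays without lead-exposed fish 3 (right), with red for positive and blue for negative values. The left panel is red throughout, from 0.44 to 0.99, and on the right csf1ra with c1qb is below 0 and the havcr1 row is pale apart from mpeg1.1, coro1a and c1qb.

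Other genes of microglia and macrophages shared part of the pattern. Of 15 measured genes of a wider list, 11 had lower and 4 higher means in the exposed fish, and 2 of the 15 had an unadjusted p under 0.05, both lower, against 7.19% of all transcripts in either direction. For apoeb, an apolipoprotein E gene strongly expressed by zebrafish microglia, the difference was −0.74 (SE 0.28, adjusted p = 0.674), and for p2ry12, a purine receptor, −0.50 (adjusted p = 0.68) with every value under the limit. Unlike in the 10 genes, the groups did not overlap in either, as in 13.1% of all transcripts. The apoeb target read 14.79 to 15.42 in the controls and 13.795 to 14.74 in the exposed fish. The p2ry12 target was lowest in lead-exposed fish 1, at 8.71, and read 8.95 and 9.19 in lead-exposed fish 2 and 3. The genes mfap4.1 and lgals9l1 had differences of −0.46 and −0.77. Lead-exposed fish 3 was lowest in 9 of the 15 and lead-exposed fish 2 highest in 7. The galectin gene lgals9l1 read 11.59 in lead-exposed fish 3 and between 13.37 and 14.22 in the other fish. On average the 15 genes stood at −0.50 in lead-exposed fish 3 and at 0.33 in lead-exposed fish 2.

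Signalling partners and neighbours in the same pathways were set beside the 10 genes. Of 15 genes of the Csf1 receptor axis and myeloid transcription factors, 5 had higher and 10 lower means. None reached an unadjusted p under 0.05, against 7.19% of all transcripts. The 4 with the smallest p were stat3 (−0.31), the ligand gene il34 (−0.44), and the C/EBP factors cebpb (−0.42) and cebpa (−0.20). The il34 target was above background on 3 arrays and the other 3 genes on all 6. Of 20 other complement genes, 10 had higher and 10 lower means, 3 and 2 of them at an unadjusted p under 0.05, against 7.19% of all transcripts. Among these were cfbl (−1.02), cfhl4 (−0.54), cfhl1 (0.40) and cfhl3 (0.35). Every complement gene at an unadjusted p under 0.05 was under the limit on every array, as were 16 of the 20 in all. Lead-exposed fish 3 was lowest in 6 of the 20 and on average stood at 0.01. Of 20 genes of the actin cytoskeleton, not all of them particular to leukocytes, 9 had higher and 11 lower means. Lead-exposed fish 3 was lowest in 5 of the 20, against 20.1% of all transcripts, and lead-exposed fish 2 highest in 9, against 18.2%. The smallest p was that of fermt3b (−0.43), an integrin activator of blood cells, under the limit on every array (limma, unadjusted p = 0.0082, adjusted p = 0.592). The other genes with a small p were dock2 (0.68), cfl1l (0.67) and arpc2 (−0.17), none of them at an unadjusted p under 0.05. No gene of these lists passed the adjusted threshold.

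Lists of genes of other cells were compared by array. Over 6 neutrophil genes the mean deviation was −0.19 in lead-exposed fish 3 and −0.24 in lead-exposed fish 1, and 4 of the 6 were under the limit on every array. The brightest were npsn, between 10.94 and 12.13, mmp9, between 10.38 and 10.81, and il6r, between 9.74 and 10.21. Over 13 lymphocyte genes the means ran from −0.22 in control fish 1 to 0.38 in lead-exposed fish 2. The brightest were gata3, ikzf1 and igic1s1, and 7 of the 13 were under the limit on every array. At an unadjusted p under 0.05, 2 of the 13 were called, both higher and both under the limit on every array, against 7.19% of all transcripts. Red blood cell genes ran from −0.34 in lead-exposed fish 3 to 0.55 in control fish 3 over 15 genes, with hbaa1 between 14.41 and 15.26, ba1l between 13.40 and 14.88 and cahz between 13.43 and 14.02. The mean over 18 vessel genes stayed between −0.07 and 0.06 on the 6 arrays, with slc2a1a, kdr and mfsd2aa the brightest. At an unadjusted p under 0.05, 3 of the 18 were higher and 3 lower in the exposed fish, against 7.19% of all transcripts, and none passed the adjusted threshold. Those above the limit on every array, named after their values were seen, were flt4, a receptor of vessels and lymphatics (−0.81, SE 0.14, limma adjusted p = 0.568), and rgs5a, a pericyte gene (−0.71, SE 0.17, limma adjusted p = 0.568). The mean over 16 neuronal and glial genes stayed between −0.06 and 0.08, with gad2, snap25a and plp1b the brightest. None of the 16 was called at an unadjusted p under 0.05, against 7.19% of all transcripts. Of these 16, 6 were lowest in lead-exposed fish 3 and 3 highest in lead-exposed fish 2. Both held for the radial glia genes fabp7a and gfap, named after their values were seen. The fabp7a target read 14.23 in lead-exposed fish 3 and 14.92 in lead-exposed fish 2, and the gfap target read 13.18 and 13.81. The means of the lymphocyte and neutrophil lists, too, were highest in lead-exposed fish 2, and that of the red blood cell list was lowest in lead-exposed fish 3. Of single genes, 9 of 13 lymphocyte and 3 of 6 neutrophil genes were highest in lead-exposed fish 2, against 18.2% of all transcripts. Of the red blood cell genes, 5 of 15 were lowest in lead-exposed fish 3, against 20.1%. The part of blood, of other white blood cells or of radial glia in the spread of the 10 genes was not tested.

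**Figure D5:**
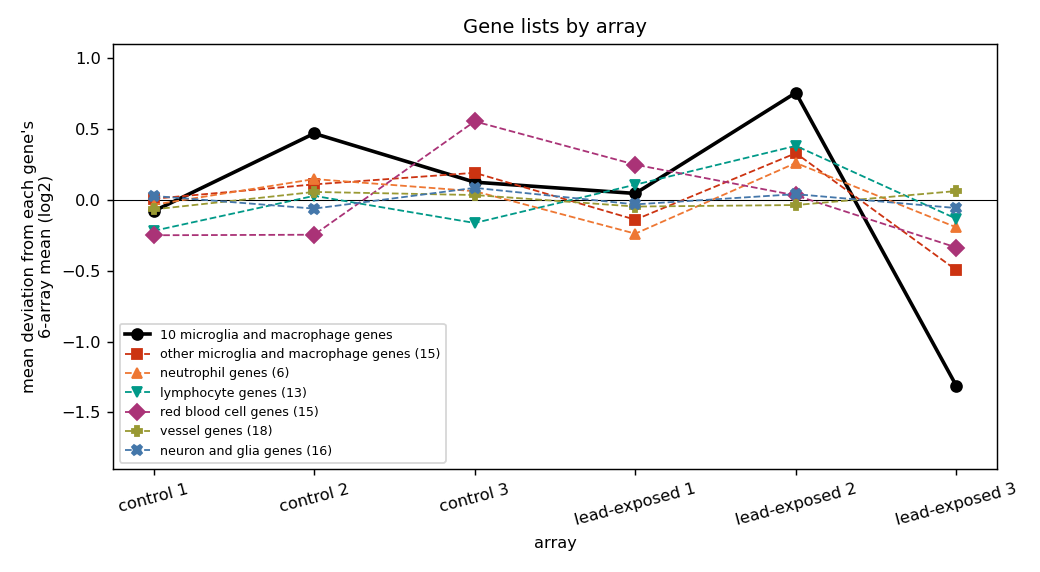
Mean deviation of each gene list (vertical axis, log2 units from each gene's mean over the 6 arrays) on each array (horizontal axis). The black line is the 10 microglia and macrophage genes and the dashed lines are other lists, with the number of measured genes in brackets. The black line falls to −1.31 in lead-exposed fish 3, where the next lowest list, the other microglia and macrophage genes, stands at −0.50.

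The transcripts most like the bright members were sought among 5695 other named genes above background on every array, by Pearson r over the 6 arrays to the mean of coro1a and lcp1. The closest were fam3c (r = 0.998), gsta.1 (0.989), sqor (0.984), hacd2 (0.976) and tmem209 (0.975). Their own ranges were small, from 0.14 log2 units for hacd2 to 0.84 for sqor, beside 2.29 for coro1a. With 6 arrays and this many genes, correlations of such size are a description of the 6 fish.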

How the data were processed

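Total RNA of 6 male zebrafish brains was measured on 1-colour NimbleGen arrays labelled with Cy3, per the labels. The deposited array files hold 1 intensity per target on a linear scale, which is an RMA value per the submitters' processing notes. The sources used here name no RMA version. A deposited table of probe intensity values, whose sorted values were nearly the same on every array, gave the 27114 random-sequence probes and the single-probe values. The authors' deposited table of altered probes gives a signed fold change (a score with no values between −1 and 1), a log2 ratio and a p-value. What test gave the p-value is not stated in them. It was used only to count members.

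Log2 of the RMA intensity was taken with no filter on dim targets. The exposed and control groups were compared in limma 3.58.1 (lmFit, then eBayes; R 4.3.3), 2-sided, with Benjamini-Hochberg adjustment over 38489 transcripts, and the fit was checked on simulated data. With 3 arrays against 3, an exact test of a single value cannot go below p = 0.1, and precision is limited by how few arrays there are. Of the targets, 13753 had a zebrafish symbol. Positions are given on Zv7. For Vega targets only the chromosome is given, since of 255 pairs of a Vega and a RefSeq target of one gene 236 shared the chromosome and 1 overlapped.

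The 10 genes, the lists of other genes, the tests and the rule for naming genes were chosen with earlier results of these data known. The rule named every member target, the 4 genes with the smallest p of each pathway list, the 3 brightest of each list of other cells and the 5 most alike transcripts, with the brightest target standing for a gene. The main comparison did not pair the fish by replicate number. The deviations of same-numbered fish from their group means correlated at −0.15, 0.14 and 0.26. With 3 fish per group these values cannot settle whether the numbers pair the fish.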

Additional observations from a re-analysis of the deposited data

How the results depend on the processing

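The number of transcripts past the adjusted threshold was 0 under every alternative run, with 2768 at an unadjusted p under 0.05 in limma on all 6 arrays. That second count was 741 without the dimmer 50% of transcripts (where 5 of the 16 targets were tested and 0 called), 5934 with array weights, 1203 on the arrays with the image name prefix, and from 1813 to 5045 when each fish was left out. It was 2753 after a repeated quantile normalization, 2930 from the probe table, 2446 after centring on random-sequence probes and 3009 with the replicate block. The replicate block left 1 member target called, a median difference of −0.32 and a median r of 0.82. Of the 16 targets, 1 to 3 were called when each fish was left out, and 0 among the 8 targets of the symbol field, a set chosen after seeing the data, as was the restriction to arrays with the prefix. The median difference over the 10 genes ran from −0.77 to 0.30 when each fish was left out and stayed between −0.61 and −0.24 under the other alternatives. The median correlation ran from 0.65 to 0.92 when each fish was left out and was 0.71 by Spearman rho. Single targets were recomputed 213 times, and 23 times the sign turned. The difference of the dimmer spi1b Vega target was −0.073 from the probe table and −0.0016 on the arrays with the prefix, where that of the brighter one was −0.36. The dimmer csf1ra target gave −0.19 and −0.12 there, and the brighter one gave 0.0597 from the probe table, 0.0185 after centring and 0.0648 with array weights, all near 0. Leaving out each fish moved the difference from −1.31 to 0.38 for mpeg1.1, from −0.78 to 0.29 for irf8, from −0.76 to 0.38 for coro1a, from −1.37 to 0.34 for c1qa, from −0.74 to 0.31 for lcp1, and from −0.42 to 0.28 for the RefSeq target of spi1b. The ranges were −0.13 to 0.51 for the brighter Vega target of spi1b, 0.02 to 0.28 for the dimmer one, −0.20 to 0.35 for the Vega target of c1qc, and −0.13 to 0.25 and −0.19 to 0.27 for the dimmer and brighter csf1ra targets. For mpeg1.1, irf8, coro1a, c1qa, lcp1 and the RefSeq target of spi1b the turn came without lead-exposed fish 3. Without lead-exposed fish 2, mpeg1.1 (−1.31) and c1qb (−1.30) passed an unadjusted p of 0.05 (limma, 0.0435 and 0.00185). In that setting 5045 of all 38489 transcripts passed it, and neither of these targets was above the random-sequence limit on any array left in. Signal over background limits mpeg1.1, c1qb, c1qc and the dimmer targets of spi1b and csf1ra, which never exceeded the random-sequence limit or did so on few arrays.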

Other observations

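On the whole array, 75 transcripts stood at least 1 log2 unit lower in lead-exposed fish 3 than in any other fish, a set taken after the values had been seen. It holds 6 of the member targets. Of the 75, 28 have a zebrafish symbol and 30 more carry only the name of a gene of another species. No theme was tested for this set, and by zebrafish symbol 3 of its targets belong to the wider list of microglia and macrophage genes. Targets that carry only the name of a gene of another species were not matched to that list. The genes named here are examples picked by eye, and the set also holds genes of other kinds, such as prl2, a prolactin gene, pkp2, of cell junctions, and gja13.2, a connexin gene, and targets named after IGF2, HES5 and CDH23. The set holds 3 targets named after cathepsin S (CTSS), a lysosomal protease, 3 after complement C4B, and single ones after PTPN6, a phosphatase of blood cells, LAPTM5, a lysosomal membrane protein of blood cells, and CD74, the invariant chain of class II antigen presentation. Among the targets with a zebrafish symbol are grna, a progranulin gene, the galectin genes lgals9l1 and lgals9l3, and the chemokine receptor genes cxcr3.2 and ccr12a. One grna target read 9.89 in lead-exposed fish 3 and 12.41 in lead-exposed fish 2, and cxcr3.2 read 8.31 and 10.17, under the random-sequence limit in both. The same count was 11, 47 and 37 transcripts for control fish 1, 2 and 3 and 133 and 21 for lead-exposed fish 1 and 2, with 0 member targets in each.

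The widest gap of that set belonged to oaz1a, which encodes an antizyme that controls ornithine decarboxylase. Its targets read 7.82 and 7.60 in lead-exposed fish 3, under the random-sequence limit, and 15.13 and 15.11 in lead-exposed fish 2. All 6 of their probes were lower in lead-exposed fish 3 than in any other fish.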
